A study of Mus musculus with 12 samples.

Results

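The 5 POU homeobox genes Pou6f1, Pou3f1, Pou3f2, Pou3f3 and Pou2f1 were followed through white matter of mice on a control-fat or a high-fat diet. They were taken by symbol from a table of 24060 genes that held 15 genes with POU names, and they were the 5 with the most counts over all libraries. The set was chosen by results already known from these data, since Pou6f1 had been seen among the genes that were lower in the ribosome pulldown on the high-fat diet. That contrast is therefore described here for the 5 genes without a test.

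All animals were male mice that carried Tie2-Cre and Rpl22-HA, in which the promoter of Tie2 (gene symbol Tek) drives Cre and Cre switches on a hemagglutinin tag on a ribosomal protein. Tie2 promoters are active in endothelial cells and also in some blood-forming lineages, which limits how far the pulldown stands for endothelia. Animals 489, 555 and 556 received a control-fat diet with 10% of its calories as fat (CFD) and animals 516, 517 and 676 a high-fat diet with 60% (HFD). Each of the 6 animals gave an input library of brain white matter RNA and a library from the anti-HA pulldown (IP), which made 4 groups of 3 libraries. The animals' ages were not given for these libraries.

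POU transcription factors bind DNA through a bipartite domain, a POU-specific part and a POU homeodomain joined by a linker. Pou2f1 (Oct-1) is made in nearly all cell types and is best known for binding the octamer motif in promoters of histone and small nuclear RNA genes. Pou3f1 (Oct-6), Pou3f2 (Brn-2) and Pou3f3 (Brn-1) are class III factors of the nervous system, known for roles in Schwann cell myelination and in upper-layer cortical neurons. Pou6f1 (Brn-5) is a class VI factor of brain.

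Pou6f1 was at its highest in CFD IP, lower in both HFD groups than in either CFD group, and without overlap between diets in either fraction. Pou3f1 was also lower in HFD input than in CFD input without overlap, but on HFD its IP values all exceeded its input values. Pou3f2, Pou3f3 and Pou2f1 overlapped between diets in both fractions. Outside the contrast that chose the set, no difference of any of the 5 genes passed the threshold in edgeR's quasi-likelihood test.

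By RefSeq coordinates on GRCm38 (mm10), Pou6f1 lies on chromosome 15 from 100575318 to 100600061 on the minus strand, with 6 to 11 exons in 3 coding transcripts. Pou3f1 (chromosome 4, 124657646 to 124660655, plus strand), Pou3f2 (chromosome 4, 22482095 to 22488366, minus strand) and Pou3f3 (chromosome 1, 42695768 to 42700210, plus strand) have 1 exon each. Pou2f1 spans chromosome 1 from 165865150 to 166002749 on the minus strand, with 2 to 17 exons in 13 coding transcripts. Exons and transcripts were counted in the GENCODE annotation of the same build, which also gave the overlapping genes named further on.

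The upstream stretch of Pou6f1 is shown because this gene was without overlap between diets in both fractions and because letters close to the POU octamer occur in it. It covers chr15:100600062-100600234 of GRCm38, minus strand, from 250 to 78 bases before the start site of the RefSeq promoter table, from which it comes. That start site lies 77 bases inside the annotated end of the gene given above, so the whole stretch lies outside the annotated gene. Capitals mark the octamer without its last base, ATGCAAA, here read on the opposite strand as TTTGCAT.

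Pou6f1 upstream: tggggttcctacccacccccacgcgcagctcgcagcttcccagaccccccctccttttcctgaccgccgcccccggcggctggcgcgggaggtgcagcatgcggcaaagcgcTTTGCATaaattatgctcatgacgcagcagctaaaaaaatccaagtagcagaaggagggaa

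The marked letters begin 138 bases before the start site of the table and 61 bases outside the annotated gene. The RefSeq promoter table, with windows of 300 bases that end 50 bases after the start, held 6 windows for 4 of the 5 genes and none for Pou3f1. Both strands were searched for the full octamer ATGCAAAT, which was in 570 of 32851 promoters (1.74%) and in none of the 6 windows. The shorter ATGCAAA, which every full octamer also holds, was in 1520 promoters (4.63%) and, among these genes, only in that of Pou6f1. It was added after the sequence had been read. The EGR motif GCGTGGGCG was in 0.612% of promoters and in none of the 6 windows. These matches describe letters and do not show binding.

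Library totals ranged from 19567186 to 33660708 counts, with 12793 to 16427 genes detected. The ribosomal RNA gene Rn45s took 38.7% to 42.3% of counts in CFD IP, 17.1% to 19.1% in HFD IP and 6.34% to 14.2% in input, so the IP libraries of the diets differed in this share as well as in Pou6f1. The fitted log2 difference of Pou6f1 between the IP groups was -2.33 with all genes and -2.35 with Rn45s and Lars2 left out, and the part of the Rn45s share in it was not tested. The defining endothelial markers were low. The summed level of 12 endothelial genes was 14.5 to 23.1 CPM (counts relative to the scaled library total, per 1000000) in CFD input, 4.11 to 213 CPM in CFD IP, 10.5 to 45.8 CPM in HFD input and 11.5 to 67.2 CPM in HFD IP, and Tek and Tie1 were at 0 in at least 1 library of every group. The 12 neuronal markers summed to 6245 to 10080 CPM in CFD IP and 9526 to 11579 CPM in HFD IP, and 8 oligodendrocyte markers to 5012 to 6306 CPM and 2922 to 7219 CPM. Markers of oligodendrocyte progenitors (206 to 254 CPM in CFD IP, 190 to 422 in HFD IP), microglia (94.6 to 132 and 148 to 313), pericytes and smooth muscle (2.90 to 25.8 and 17.8 to 33.9) and blood (0.338 to 0.729 and 0.0330 to 3.68) were lower in sum. The endothelial sum of 213 CPM in CFD IP came from animal 556, beside 6.78 and 4.11 CPM in the other CFD IP libraries. Egfl7 made up 69.3 CPM of the CFD IP mean of 74.7 CPM. Against input, 5 of 10 tested endothelial genes were fitted higher in CFD IP and 4 of 10 in HFD IP. None was called by edgeR, and DESeq2 called Cldn5 in CFD, at 0 to 9 counts in CFD IP. The paper, in contrast, reports enriched endothelial transcripts in this pulldown and HA labelling of vessels. By these sums and fits the IP libraries did not show the marker profile of the cells in which the Tie2 promoter is active. They are called IP here rather than endothelial. In such bulk samples fewer cells of a type and less RNA per cell cannot be told apart.

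Pou6f1 had 1761, 1921 and 2821 counts in CFD input (animals 489, 555 and 556), which is 75.6, 67.7 and 103 CPM. In CFD IP it had 3328, 2934 and 4777 counts, or 172, 142 and 268 CPM in the same animals. The HFD input libraries of animals 516, 517 and 676 held 1823, 1414 and 1450 counts and were nearly equal at 50.7, 51.2 and 51.5 CPM. Their IP libraries held 631, 1227 and 1754 counts, at 21.9, 40.5 and 53.5 CPM. Every CFD library was thus above every HFD library, with the lowest CFD value at 67.7 CPM and the highest HFD value at 53.5 CPM. The lowest value of all came from the IP of animal 516 and the highest from the IP of animal 556.

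The group means of Pou6f1 were 82.1 ± 18.5 CPM in CFD input, 194 ± 65.8 in CFD IP, 51.1 ± 0.428 in HFD input and 38.6 ± 15.9 in HFD IP (SD, n = 3 each). The HFD IP mean was 5.02-fold below that of CFD IP, with a fitted log2 difference of -2.33 (SE 0.431). In this contrast edgeR called 8 genes at an adjusted p under 0.1, which were 0.0557% of 14354 genes tested. That Pou6f1 was 1 of them is how it was chosen, and nothing is read from it. Groups that did not overlap, with HFD IP lower than CFD IP, were seen for 4.66% of all genes tested and for 1 of the 5 members.

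In input, whose libraries were not in the contrast that made Pou6f1 known, Pou6f1 was 1.60-fold lower on HFD. The input libraries came from the same mice as the IP libraries and were fitted together with them. The fitted log2 difference was -0.68 (SE 0.413, edgeR adjusted p = 1). No gene was called between the diets in input (0% of 14354), while 292 genes had an unadjusted p under 0.05 in edgeR and 31 were called by DESeq2. HFD input lay below CFD input without overlap for 4.33% of all genes, and for Pou6f1 and Pou3f1 among the 5. Pou6f1 was the only one of the 5 that was lower on HFD without overlap in both fractions, as were 0.418% of all genes, but the IP part of that pattern is the one used to choose it.

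**Figure D1:**
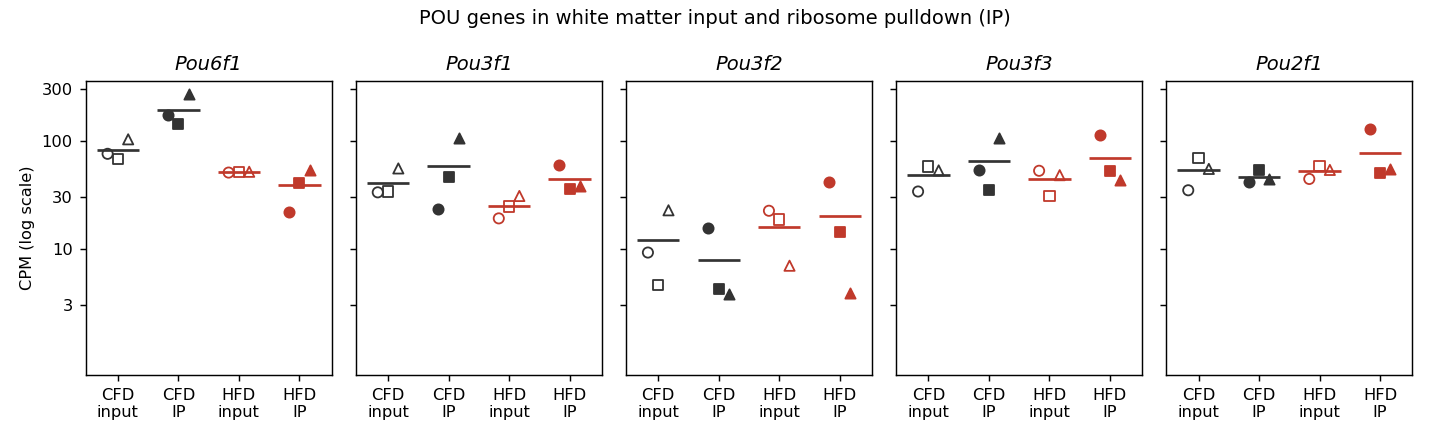
CPM of the 5 POU genes on a log axis in the 4 groups, with 1 point per library, open for input and filled for IP, black for CFD and red for HFD, and a bar at the mean of 3 animals; the shape of a point marks the animal within a diet. For Pou6f1 the 6 CFD points lie between 67.7 and 268 CPM and the 6 HFD points between 21.9 and 53.5 CPM, whereas the diets overlap for Pou3f2, Pou3f3 and Pou2f1.

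Pou3f1, the Oct-6 gene, had 775, 961 and 1517 counts in CFD input, at 33.3, 33.9 and 55.3 CPM. In CFD IP it ranged widely, with 23.3, 45.8 and 105 CPM in animals 489, 555 and 556. HFD input was the lowest group at 19.1, 24.6 and 30.8 CPM, and HFD IP had 59.2, 35.6 and 38.2 CPM. HFD input was below CFD input without overlap, by 1.64-fold, from 40.8 ± 12.6 to 24.8 ± 5.84 CPM (SD, n = 3 each). The fitted log2 difference of -0.72 (SE 0.589) did not pass the test (edgeR adjusted p = 1). In IP the diets overlapped, at 58.0 ± 42.1 CPM in CFD and 44.4 ± 12.9 in HFD (SD, n = 3 each), and the fitted log2 difference was -0.39 (SE 0.586). Without animal 556 this difference turned to 0.36.

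Pou3f2, the Brn-2 gene, was the least abundant of the 5 and the most variable. Its CFD input values were 9.23, 4.62 and 22.7 CPM, and its CFD IP values 15.6, 4.20 and 3.81 CPM. HFD input had 22.5, 18.7 and 6.97 CPM and HFD IP 41.7, 14.2 and 3.87 CPM. The coefficient of variation within a group was 50.4% to 98.2%, against 0.836% to 41.1% for Pou6f1, and every group overlapped every other. The fitted log2 differences between diets were 1.34 (SE 1.06) in IP and 0.40 (SE 1.04) in input.

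Pou3f3, the Brn-1 gene, had 33.9, 57.7 and 53.1 CPM in CFD input and 53.3, 34.6 and 106 CPM in CFD IP. HFD input had 52.7, 30.7 and 47.9 CPM and HFD IP 112, 52.4 and 43.5 CPM. The highest value in each IP group came from 1 animal, 556 on CFD and 516 on HFD, and the diets differed by only 0.10 (SE 0.527) in IP and -0.14 (SE 0.527) in input on the fitted log2 scale. All 4 groups overlapped.

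Pou2f1, the Oct-1 gene, had 34.8, 69.4 and 54.8 CPM in CFD input, 41.7, 53.0 and 44.1 CPM in CFD IP and 44.2, 58.3 and 53.6 CPM in HFD input. HFD IP had 129 CPM in animal 516 and 49.8 and 54.2 CPM in animals 517 and 676. The fitted log2 difference between diets in IP of 0.75 (SE 0.492) was 0.14 without animal 516. In input the means were 53.0 ± 17.4 and 52.0 ± 7.14 CPM (SD, n = 3 each).

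The IP library of animal 516 was thus the highest of its group for Pou3f1, Pou3f2, Pou3f3 and Pou2f1 and the lowest for Pou6f1. It had the largest total of the 12 libraries, 33660708 counts, and its own input did not share the deviation of Pou3f1, Pou2f1 or Pou6f1. Leaving this animal out moved the Pou6f1 difference between the IP groups to -2.07, and leaving out animal 556, the highest CFD IP value, moved it to -2.02.

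**Figure D2:**
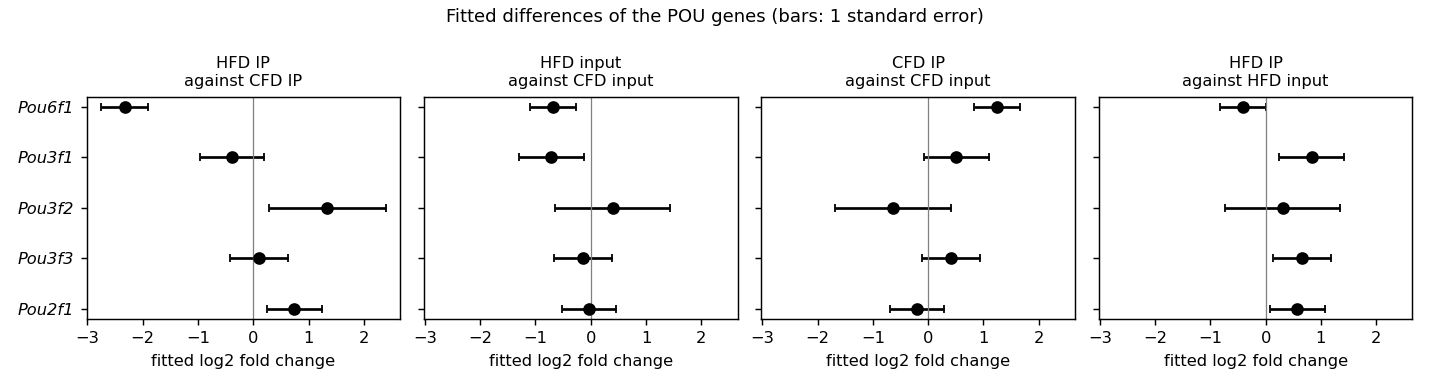
Fitted log2 fold changes of the 5 POU genes in 4 comparisons of 3 libraries against 3, with points at the edgeR estimate and bars of 1 standard error. Pou6f1 lies at -2.33 between the IP groups, the contrast that chose it, and at -0.68 between the input groups, while the other 4 genes lie within 1.34 of 0 in all comparisons.

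The pulldown was compared with input in each diet. These comparisons share the IP libraries with the contrast that chose the set. In CFD, Pou6f1 was 2.36-fold higher in IP than in input, without overlap, at a fitted log2 difference of 1.24 (SE 0.417). The difference did not pass after adjustment (edgeR adjusted p = 0.269), and DESeq2 gave an adjusted p of 0.0513. Of all genes, edgeR called 0.188% in this comparison, and 6.43% were higher in CFD IP than in CFD input without overlap. DESeq2 called 816 genes. A fit blocked by animal called 139 genes in place of 27, and Pou6f1 kept a log2 difference of 1.21 (adjusted p = 0.261). The other 4 members differed by -0.63 to 0.51, with adjusted p of 0.782 to 0.913 in edgeR.

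In HFD, Pou6f1 was not higher in the pulldown, with a fitted log2 difference of -0.40 (SE 0.412, edgeR adjusted p = 0.960). The Pou3f1 mean was 1.79-fold that of input, without overlap, as 6.13% of all genes were. Its fitted log2 difference was 0.84 (SE 0.590, edgeR adjusted p = 0.894). Pou3f3 (0.66, SE 0.529), Pou2f1 (0.58, SE 0.491) and Pou3f2 (0.31, SE 1.04) also overlapped. In this comparison 2 genes were called, 0.0139% of those tested, and 24 in the fit blocked by animal, none of them a member.

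Within animals, the log2 ratio of IP to input for Pou6f1 was 1.19, 1.07 and 1.38 in CFD animals 489, 555 and 556. It was -1.21, -0.34 and 0.05 in HFD animals 516, 517 and 676. The CFD ratios averaged 1.21 ± 0.159 and the HFD ratios -0.50 ± 0.648 (SD, n = 3 each), without overlap. Of 10205 tested genes above 0 in all 12 libraries, 4.54% had HFD ratios below the CFD ratios without overlap. The interaction of diet and fraction, which also uses the IP libraries behind the choice of the gene, was -1.65 (SE 0.585) on the log2 scale, with an unadjusted edgeR p of 0.0101 and an adjusted p of 0.829. No gene was called for the interaction (0% of 14354) in edgeR, while DESeq2 called 121 and not Pou6f1 (adjusted p = 0.224). For the other 4 members the interaction was 0.24 to 0.94 with adjusted p of 0.938 to 0.995.

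**Figure D3:**
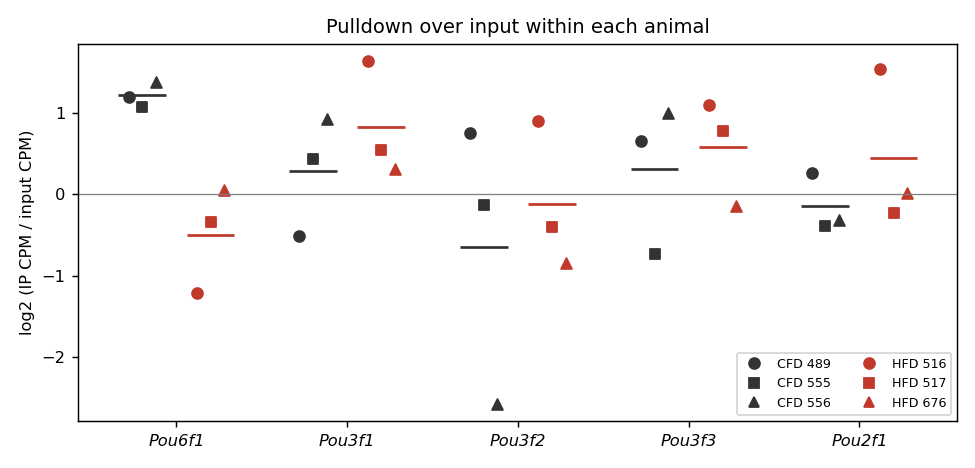
The log2 ratio of IP CPM to input CPM within each animal for the 5 POU genes, with black points for 3 CFD animals, red points for 3 HFD animals and a bar at each mean. For Pou6f1 the CFD points lie from 1.07 to 1.38 and the HFD points from -1.21 to 0.05, while the diets overlap for the other 4 genes.

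Levels between genes were compared per kilobase of the gene length that the table uses. In CFD IP, Pou6f1 was the highest of the 5 at 42.4 ± 14.4 CPM per kb, which exceeded 90.6% of the genes tested. Pou3f3 followed at 21.0 ± 11.99 and Pou3f1 at 19.3 ± 14.0, and then Pou2f1 at 3.54 ± 0.455 and Pou3f2 at 1.25 ± 1.06 CPM per kb (SD, n = 3 each). In HFD IP, Pou6f1 was at 8.44 ± 3.47 CPM per kb, above 59.6% of genes, behind Pou3f3 at 22.6 ± 12.2 and Pou3f1 at 14.7 ± 4.30. In input the order was Pou6f1, Pou3f3 and Pou3f1 on CFD, at 17.9, 15.7 and 13.6 CPM per kb, and Pou3f3, Pou6f1 and Pou3f1 on HFD, at 14.3, 11.2 and 8.25 CPM per kb. Pou2f1 and Pou3f2 were the lowest in every group. Most neighbours in these orders overlapped between libraries. The exceptions were Pou3f1 above Pou2f1 in CFD IP and in both input groups, Pou2f1 above Pou3f2 in CFD IP, Pou6f1 above Pou3f1 in HFD input, and Pou3f1 above Pou6f1 in HFD IP, where the lowest Pou3f1 value of 11.8 was close to the highest Pou6f1 value of 11.7 CPM per kb. Pou2f1 is the longest gene in the table's lengths, at 13050 bases against 3010 for Pou3f1, so its CPM exceeds what its level per kilobase shows.

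Other POU genes of the table had fewer counts. Pou1f1, Pou4f3 and Pou5f1 had none in any library. Pou2f3, Pou4f1, Pou4f2 and Pou5f2 reached at most 86 counts in a library and fell below the filter. Pou2f2 (Oct-2), a factor known from B cells, ranged from 7 to 1572 counts in CFD IP and from 3 to 268 in HFD IP, and the fitted log2 difference between them of -3.61 (SE 1.54) did not pass (edgeR adjusted p = 0.404). Pou3f4 (Brn-4), a factor of the inner ear and forebrain, had 3 to 16 counts in CFD IP and 3 to 332 in HFD IP. Neither Pou2f2 nor Pou3f4 was called by edgeR in any of the 5 comparisons. DESeq2 called Pou2f2 between the IP groups, among 770 genes.

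Among 16 genes listed as partners or co-regulators of POU factors, 15 were tested and edgeR called 1, Nab2, which was lower in HFD IP than in CFD IP. The list was drawn up with earlier results of these data known. Over all genes, edgeR called 8 of 14354 tested (0.0557%) between the IP groups, and DESeq2 called 770. Of the list, DESeq2 called Nab2 and Snapc3 between these groups. Snapc3, a subunit of the complex that starts small nuclear RNA transcription, was fitted higher in HFD IP by 2.90 (SE 1.01) in edgeR, with an adjusted p of 0.347. Nab2 is known as a co-repressor of EGR factors rather than for contact with POU factors. It was listed because Egr2 acts downstream of Pou3f1 in Schwann cells. Egr2 itself was fitted higher in HFD IP than in CFD IP by 2.47 (SE 1.18, edgeR adjusted p = 0.452). Nab1 differed by -0.45 (SE 0.684). Nab2 had 193, 258 and 129 CPM in CFD IP and 45.4, 28.4 and 43.4 CPM in HFD IP, without overlap, at a fitted log2 difference of -2.31 (SE 0.430, edgeR adjusted p = 0.0507). In input its groups overlapped, at 60.2 ± 21.3 CPM on CFD and 59.2 ± 6.89 CPM on HFD (SD, n = 3 each), whereas the input groups of Pou6f1 did not. Hcfc1, an abundant gene of the list and a co-activator that Oct-1 recruits, differed by -0.03 (SE 0.362) in the same comparison. The median of the 15 was -0.17, beside 0.03 over all genes tested, with 4 fitted higher and 11 lower.

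Of 32 other homeobox genes, 31 were tested and none was called in any of the 5 comparisons, with 2 at an unadjusted edgeR p under 0.05 between the IP groups, as 1565 of all 14354 genes (10.9%) were. DESeq2 called 1 between the IP groups, Hhex, and 1 between CFD IP and CFD input, Zhx1. Over all genes DESeq2 called 770 and 816 in these comparisons. The median log2 difference of the 31 homeobox genes between the IP groups was 0.06, with 17 fitted higher and 14 lower. None of 12 transcription factors of cortical neurons was called either, with 1 at an unadjusted edgeR p under 0.05 between the IP groups and a median of -0.09, and DESeq2 called none of them. The most abundant of these, Mef2c and Bcl11b, differed by 0.02 (SE 0.457) and -0.90 (SE 0.340) between the IP groups.

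Likeness was measured as Pearson's r of log2 CPM over the 12 libraries, which share depth and composition, and is given as a description. The genes most like Pou6f1 were Gfap (r = 0.94), the intermediate filament of astrocytes, Kansl3 (r = 0.91), a subunit of a histone acetyltransferase complex, and Zfp652 (r = 0.90), a zinc finger gene. For Pou3f1 they were Cpe, Pianp and Sema5a (r = 0.85 to 0.87), and for Pou3f2 Tmem198b, Fam149a and Elmo1 (r = 0.86 to 0.88). Tmem198b was near the floor, with no counts in libraries of every group and at most 91, in the HFD IP of animal 516. For Pou3f3 the most alike were Chmp4b, Arhgap27 and Kifc3 (r = 0.89 for each), and for Pou2f1 Senp7, Cxxc1 and Capn5 (r = 0.89 to 0.93). The HFD IP of animal 516 was the highest library for Pou2f1, Senp7, Cxxc1 and Capn5, at 129, 237, 114 and 266 CPM. It was also the highest for Kifc3, at 106 CPM. How far these r values rest on that library was not tested. Between members, Pou3f1 and Pou3f3 were the most alike (r = 0.61), and Pou6f1 ran against Pou2f1 (r = -0.59) and Pou3f2 (r = -0.50).

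Gfap had 93.0, 74.4 and 125 CPM in CFD input and 155, 199 and 177 CPM in CFD IP. On HFD it had 71.9, 80.7 and 82.0 CPM in input and 40.8, 71.9 and 97.7 CPM in IP. As for Pou6f1, the CFD IP libraries were the highest and the IP of animal 516 the lowest, but the input groups of Gfap overlapped. Its fitted log2 difference between the IP groups was -1.34 (SE 0.391), and edgeR did not call it. The other astrocyte markers did not all follow it. Of 8 tested, 3 were fitted higher and 5 lower in HFD IP, with a median of -0.18 and none called by edgeR. DESeq2 called Gfap and Gja1, among 770 genes in this comparison. Gja1 was fitted higher in HFD IP by 1.60 in edgeR (SE 0.583), the opposite direction to Gfap. The summed level of the 8 was 4030 to 9988 CPM in CFD IP and 4248 to 7984 CPM in HFD IP. In input the sum was 4581 to 5618 CPM on CFD and 3786 to 3984 CPM on HFD, so the astrocyte sum and Pou6f1 were both lower in HFD input without overlap. Most of this sum was 1 gene, Slc1a2, with a mean of 4375 of 5164 CPM on CFD and 3243 of 3872.5 CPM on HFD. Of the 8 astrocyte markers, 7 were fitted lower in HFD input and 1 higher, with a median of -0.46 and none called by edgeR. All 12 neuronal markers were also fitted lower in HFD input, with a median of -0.23 on the log2 scale, 2 at an unadjusted edgeR p under 0.05 and none called. Their sum overlapped between the input groups, at 9904 to 14131 CPM on CFD and 8297 to 11811 CPM on HFD. The part of astrocyte or neuronal RNA in the Pou6f1 result was not tested.

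**Figure D4:**
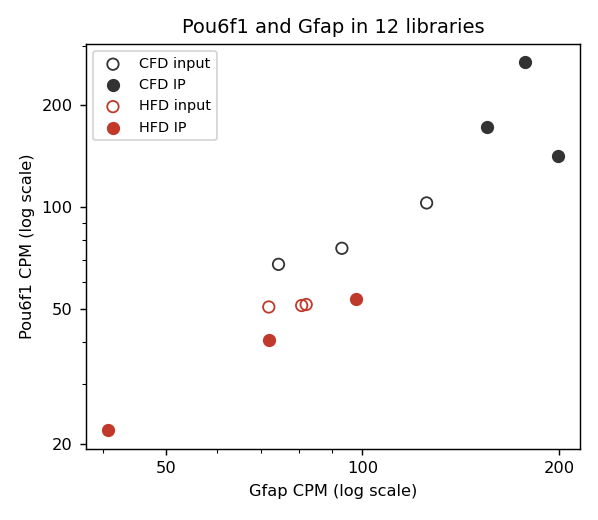
CPM of Pou6f1 against CPM of Gfap on log axes in the 12 libraries, open for input and filled for IP, black for CFD and red for HFD. The 3 CFD IP libraries lie at the upper right (142 to 268 CPM of Pou6f1, 155 to 199 CPM of Gfap) and the HFD IP library of animal 516 at the lower left (21.9 and 40.8 CPM).

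Other RNA at these loci was checked, since the use of strand in counting is not stated. No stretch of 69 bases, the read length, was shared between transcripts of the members. The antisense genes Gm27209 at Pou6f1 and Gm2164 at Pou3f1, AC122898.1 on the strand of Pou3f3, and the pseudogene Gm17976 opposite Pou2f1, had no row of their own in the table. Of the 69-base windows of Pou3f1, 6.96% also occurred in Gm2164, and 16.4% of those of Pou2f1 occurred in Cd247, which overlaps it on the opposite strand. Cd247, a T cell receptor subunit, had 0 to 1 counts in every library. The neighbours of Pou6f1, Tfcp2 at 23303 bases and C330013E15Rik at 14078 bases, were not called in any comparison. Tfcp2 was fitted higher in HFD IP than in CFD IP by 1.77 on the log2 scale (SE 1.06, edgeR adjusted p = 0.536), the opposite direction to Pou6f1.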

How the data were processed

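White matter RNA of 6 mice was sequenced as input and as anti-HA pulldown, and the labels gave each library's group and animal. According to the study's methods the libraries were made with a TruSeq kit with ribosomal RNA removal and read as 69-base pairs, whereas the labels name a Nugen Ovation kit, so that the preparation is uncertain. The submitters' processing notes name STAR, HTSeq and mm10, with versions, annotation and strand not given in the sources used here.

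The authors deposited raw counts per gene symbol, which were used for all tests. The authors also deposited FPKM, used only for the gene length they imply, a normalized count per library and the columns of their own comparisons (fold changes, p-values and adjusted p-values), which were not used. The relative spread of a gene's implied length over libraries was at most 2.5e-13.

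Counts were analysed with edgeR 4.0.16 in R 4.3.3. The filter filterByExpr (minimum count 10, minimum total 15) left 14354 of 24060 genes, and all 5 POU members passed. TMM scaling, glmQLFit with 4 group means over 12 libraries and glmQLFTest gave 5 contrasts, adjusted by Benjamini-Hochberg over all genes and called under 0.1, as in the study. A standard error is the log2 fold change over the root of the F statistic. CPM used library totals, 19567186 to 33660708 counts as deposited, multiplied by the TMM factors. Precision was limited by the spread between animals, the common dispersion being a biological coefficient of variation of 101%. The labels name no batch. Likeness used log2 CPM with a prior count of 2.

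The members, the lists of genes and the tests were chosen with earlier results of these data known. Named genes were the members, the other POU genes, called genes or the most abundant genes of fixed lists, the 3 genes most like each member, neighbours of Pou6f1 and overlapping genes. Not every gene that the rule allows is printed, and some genes are not reported here. Some list genes that DESeq2 called, and Egr2 and Nab1, were chosen after their values were seen and are named in addition. Alternatives were RLE scaling, no filter, DESeq2 1.42.0, leaving out Rn45s and Lars2, dropping the IP and input of each animal in turn, and a replicate block of the animal, fixed for IP against input and the interaction and random, by limma 3.58.1 voom with duplicateCorrelation, between diets. The pairing comes from the animal number, since IP and input were from the same mouse. Deviations of the paired libraries from their group means correlated at 0.00641 to 0.190. On simulated counts for HFD input against CFD input, with 13943 genes fitted, 48 of 100 genes changed by a factor of 4 and 86 of 100 changed by a factor of 16 were called. The changed genes were drawn only from those with a mean CPM above the median, so the power for less abundant genes was not tested.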

Additional observations from a re-analysis of the deposited data

Results flagged for a closer look

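Of 23 POU and partner genes whose ratios of IP to input were examined within animals, Nab2 was the only one that lay above 0 in every CFD animal and below 0 in every HFD animal. The log2 ratios were 2.25, 2.18 and 0.64 in CFD animals 489, 555 and 556 and -0.18, -1.12 and -0.57 in HFD animals 516, 517 and 676, so that the means differed by -2.31 (HFD minus CFD). The share of all genes with such opposite signs was not counted. By a wider criterion, HFD ratios below CFD ratios without overlap whatever their sign, the share was 4.54% of the 10205 tested genes above 0 in all libraries. The ratios use the same IP libraries in which edgeR called Nab2 between the diets, so nothing is read from its place in the list. The edgeR interaction of diet and fraction for Nab2 was -2.29 (SE 0.587) on the log2 scale, with an adjusted p of 0.829. DESeq2 called the interaction of this gene, among 121 genes.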

How the results depend on the processing

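Of 275 values of the 5 members under the alternatives, 254 kept their direction and their side of the threshold, 3 lost the call, 1 gained one and 17 changed sign, none of them for Pou6f1. For HFD IP against HFD input DESeq2 gave the 5 members no adjusted p. These values kept their direction and were counted among the 254 as not called. The count of genes called depended strongly on the setting. Between HFD IP and CFD IP it was 219 with no filter, 5 without Rn45s and Lars2, 770 in DESeq2, 5 with the replicate block and 1 to 20 when an animal was left out. Without animal 516, 517 or 556 Pou6f1 was not called, so that 0 to 1 members were. Between CFD IP and CFD input it was 312 with no filter, 816 in DESeq2 (1 member, Pou6f1), 139 with the replicate block and 2 to 52 when an animal was left out. Between HFD IP and HFD input it was 79 with no filter, 0 without Rn45s and Lars2, 160 in DESeq2, 24 with the replicate block and 0 to 35 when an animal was left out. Between the inputs it was 3 with no filter, 31 in DESeq2 and 0 to 1 when an animal was left out, and for the interaction 44, 121 and 0 to 1. The causes were not tested. The replicate block changed no call of a member, and with it Pou3f2 in HFD IP against HFD input was -0.12.

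Leaving out an animal turned the sign of some log2 differences. Between the IP groups Pou3f1 ranged from -0.78 to 0.36 and Pou3f3 from -0.45 to 0.66. Between CFD IP and CFD input Pou3f2 ranged from -1.77 to 0.50 and Pou3f3 from -0.068 to 0.89. Between HFD IP and HFD input Pou3f2 ranged from -0.54 to 0.63 and Pou2f1 from -0.12 to 0.90. Between the inputs Pou3f3 ranged from -0.36 to 0.062 and Pou2f1 from -0.27 to 0.23. In the interaction Pou3f1 ranged from -0.10 to 0.80, Pou3f2 from -0.18 to 2.07 and Pou3f3 from -0.22 to 0.73. Changes smaller than by a factor of 4 were not simulated, so the power for differences of the size seen in the class III genes was not tested.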
